A study of Mus musculus with 8 samples.

Results

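Gamma delta T cells were picked out of droplet single-cell RNA-seq of tumour-bearing mouse livers by the transcripts they held. A barcode counted as a member with at least 500 unique molecular identifiers (UMIs, one per captured transcript) over genes, at least 300 genes and at most 20% mitochondrial UMIs. It also needed a UMI in Trdc, the delta constant gene, a UMI in Cd3d or Cd3e, and none in Trac, Cd4, Cd8a, Cd8b1, Foxp3, Cd79a, Lyz2 or C1qa. This left 201 members among 21482 barcodes past the limits on UMIs, genes and mitochondrial share. The members were thus selected on measured UMIs of these 11 genes, so the levels of those genes are given as a description and not tested.

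All mice carried floxed Nr4a1 alleles (Nr4a1 fl/fl), were C57BL/6 males, and received plasmid DNA by hydrodynamic injection into the tail vein at 8 to 10 weeks of age. The plasmids carried CRISPR-Cas9 with a guide against Trp53, a c-Myc transposon and its transposase, which raise hepatocellular carcinoma, and livers were taken 4 to 5 weeks later. In the knockout mice an iCre allele at Ncr1, the gene of the natural killer (NK) cell receptor NKp46, removes floxed Nr4a1 in cells that express Ncr1. Control mice were Nr4a1 fl/fl with the wild-type Ncr1 allele and no Cre. Each group had 3 libraries. Libraries 1 and 2 are called biological replicates, with no statement of the animals behind them, so p-values measure the spread between libraries. Knockout 3 pooled 2 mice and control 3 pooled 3 mice, told apart by hashtag antibodies. Barcodes past the limits numbered 2777, 134 and 5197 in knockouts 1, 2 and 3 and 2697, 549 and 10128 in controls 1, 2 and 3, and they held 887170 to 93302952 UMIs per library. Knockout 2 stood apart, with a median mitochondrial share of 75.1% among barcodes of at least 500 UMIs, as did control 2 with 27.9%, against 6.7% to 10.0% in the other 4 libraries.

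Gamma delta T cells carry an antigen receptor built from gamma and delta chains in place of alpha and beta chains, held at the surface by the CD3 proteins. Most leave the thymus already committed to one of a pair of programmes. Type 1 cells run on the transcription factor T-bet, make interferon gamma and carry NK receptors, while type 17 cells respond to interleukin 1 and interleukin 23 and make interleukin 17. In liver both kinds occur, and the type 17 kind is known for tissue residence and for receptors assembled early in life.

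The members came unevenly from the libraries. Knockouts 1, 2 and 3 gave 70, 0 and 39 members, and controls 1, 2 and 3 gave 27, 5 and 60. Knockout 2, the library with the highest mitochondrial share, gave none. The members held 1483429 UMIs in all, with a median of 5358 UMIs each and a range of 900 to 120843. At the top of that range, 2 barcodes went against the label. One in knockout 1 held 86435 UMIs, of which 221 came from Alb, Apoa1, Ttr and Fgb, genes of hepatocytes, and one in control 3 held 120843 UMIs with 1008 from these genes, whereas no other member had more than 23. Each of the 2 had a single Trdc UMI. They held 15.2% and 23.5% of the member UMIs of their libraries, so the main counts of genes are given with and without them. Any 2 libraries shared at most 15 kept barcodes.

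**Figure D1:**
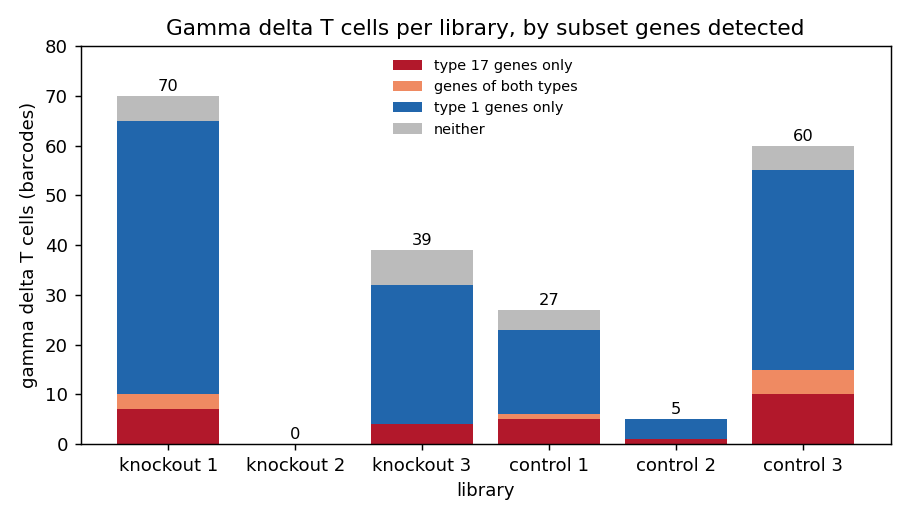
Number of gamma delta T cells (barcodes) in each library, knockout libraries left of control libraries, stacked by whether they held UMIs of type 17 genes, of type 1 genes, of both or of neither. Type 1 cells make up most members in every library with members, and knockout 2 has none.

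The label was checked against genes the rule did not use. A gamma constant gene (Trgc1, which is the marker Tcrg-C1, Trgc2, Trgc3 or Trgc4) had a UMI in 152 of 201 members (75.62%). The share was 15.16% in alpha beta T cells (433 of 2857 cells with a UMI in Trac and in Cd3d or Cd3e and none in Trdc, Cd79a, Lyz2 or C1qa) and 7.09% in NK cells (75 of 1058 cells with a UMI in Ncr1 or Klrb1c and none in Cd3d, Cd3e, Cd3g, Trac, Cd79a, Lyz2 or C1qa). Median depths were 5358 UMIs in gamma delta T cells, 5049 in alpha beta T cells and 3907.5 in NK cells. Cd3g, the third CD3 gene, had a UMI in 170 members (84.58%). The gamma constant share was thus higher in members than in either other class. Of the members, 47 had a single Trdc UMI, and 24 of those also had a gamma constant UMI. Just outside the gate, 403 of 5716 cells with a Cd3d or Cd3e UMI had Trdc, of which 146 were turned away for Trac, 33 for Cd4, Cd8a, Cd8b1 or Foxp3, and 23 for a B cell or macrophage gene. A Trdc UMI was also seen in 14.27% of NK cells, with 180 UMIs over 151 cells. The alpha beta gate leaves out cells with Trdc, so no class gives a background share for it.

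Markers of other cell types were at very different levels. The B cell gene Cd79a and the macrophage genes Lyz2 and C1qa are at 0 by the rule, while Ms4a1, a B cell gene the rule did not use, had no UMI in any library's members. Of the 5 macrophage and monocyte markers, the 3 that the rule did not use summed to 0 to 9.7 CPM per library (UMIs per 1000000 UMIs of the members in that library). Hepatocyte transcripts summed to 409 and 420 CPM in knockouts 1 and 3 and to 99.9, 0 and 2223 CPM in controls 1, 2 and 3. The 10 NK cell and ILC1 markers summed to 914 and 1810 CPM in knockouts 1 and 3 and to 2457, 3988 and 1333 CPM in controls 1, 2 and 3, against 2924 to 7304 CPM in NK cells. Ncr1 had a UMI in 46 members, of which 27 also had a gamma constant UMI. The beta constant genes Trbc1 and Trbc2 had a UMI in 181 members (90.0%), and these genes can be transcribed without a working beta chain. In NK cells, which make no alpha beta receptor, 58.7% had a Trbc1 UMI.

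The receptor genes are shown first, because the constant genes decide which UMIs can be told apart and the variable segments mark the lineages. The last 120 coding bases of the 4 gamma constant genes follow, 5′ to 3′ along each gene, read from the GRCm38 mouse genome with GENCODE annotation. The deposited counts were made on GRCm39, so these coordinates belong to the sequences and not to the counts. Capitals mark bases that differ from Trgc1.
Trgc1 (chr13:19216496-19216615, plus strand): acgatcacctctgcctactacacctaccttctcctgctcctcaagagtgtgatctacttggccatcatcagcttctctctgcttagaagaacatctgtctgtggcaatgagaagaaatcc
Trgc2 (chr13:19305063-19305182, minus strand): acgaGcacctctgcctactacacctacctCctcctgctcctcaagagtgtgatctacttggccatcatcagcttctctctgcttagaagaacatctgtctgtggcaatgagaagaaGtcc
Trgc3 (chr13:19263275-19263394, plus strand): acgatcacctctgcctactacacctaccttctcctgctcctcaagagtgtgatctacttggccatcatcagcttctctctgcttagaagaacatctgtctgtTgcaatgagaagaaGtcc
Trgc4 (chr13:19352221-19352340, plus strand): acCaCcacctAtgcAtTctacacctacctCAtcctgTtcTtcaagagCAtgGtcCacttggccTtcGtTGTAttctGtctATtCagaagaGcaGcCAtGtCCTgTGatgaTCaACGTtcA
Trgc2 and Trgc3 differ from Trgc1 at 3 and 2 of the 120 bases, and Trgc4 differs at 40. The reads of this assay come from the 3′ ends of transcripts. There the last 300 bases of Trgc1 and Trgc2 were 91.1% identical, so reads of these genes may have been split or dropped by the counting and their separate levels are uncertain. Trgc4 was 51.0% identical to Trgc1 over the same stretch.

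Trgc1, Trgc2 and Trgc4 had UMIs in 81, 77 and 102 members (40.3%, 38.31% and 50.75%), and Trgc3 in none of 201, which allows a UMI in up to 1.82% of cells. Trgc3 was 96.7% identical to Trgc1 in coding bases but 38.5% over the last 300 bases of the annotated transcripts. The Trgc3 transcript used has 519 bases, 516 of them coding, so it lacks the end that Trgc1 has and the last stretches are unlike. Whether reads of Trgc3 were counted to Trgc1 or dropped was not tested. Among the variable segments, Trgv2 was seen in the most members, 100 of 201 (49.75%), followed by Trgv1 in 38 (18.91%). Trgv1 and Trgv2 are 94.9% identical in their coding bases, so their UMIs may be shared. Trdv4 was seen in 21 members (10.45%), Trgv6 in 15 (7.46%), Trdv2-2 in 11 (5.47%), Trgv4 in 9 (4.48%), Trdv1 in 8 (3.98%) and Trgv5 and Trgv7 in 2 and 1. A variable segment lies far from the 3′ end of its transcript, so many transcripts that carry one would not be counted to it.

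Gamma delta T cells differed from alpha beta T cells in their receptor genes, in type 17 genes and in NK receptors. UMIs were summed per library and class over knockouts 1 and 3 and controls 1 and 3, the libraries with at least 10 cells of each class, and compared with the library as a block. Of 7431 genes tested with the edgeR quasi-likelihood test, 57 passed an adjusted p of 0.05 (0.767%), 35 higher (0.471%) and 22 lower (0.296%) in gamma delta T cells. Without the 2 hepatocyte-type barcodes 154 of 7174 passed (2.15%), 81 higher (1.13%) and 73 lower (1.02%), among them 54 of the 57. The count was 34 without knockout 1, 122 without knockout 3, 30 without control 1 and 31 without control 3. The gates and the filter on low counts shape part of this contrast. The filter lets a gene in through 1 class alone. A gene low in 1 class could thus be tested only where it was high in the other. The alpha beta gate keeps Foxp3, Cd4 and Cd8a cells, which the gamma delta gate leaves out, and Gm43434, the gene with the smallest p, is an antisense gene that overlaps Trdc.

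All 6 receptor genes tested, Trgc1, Trgc2, Trgc4, Trgv1, Trgv2 and Trdv4, were higher in gamma delta T cells, with a median log2 fold change of 2.64 against -0.01 over all genes tested. Trdv4 is a segment of the delta chain, whose constant gene Trdc members had to hold and alpha beta T cells had to lack. Its direction was thus partly set by the gates. Trgc1 was read at 144, 128, 126.5 and 122 CPM in gamma delta T cells of knockout 1, knockout 3, control 1 and control 3, against 19.9, 15.1, 34.1 and 9.45 CPM in alpha beta T cells of the same libraries. The 2 classes did not overlap in any library, and the log2 fold change was 2.92 (SE 0.27, adjusted p = 0.000259, edgeR quasi-likelihood test). Trgv2 gave 162, 128, 160 and 105 CPM in gamma delta T cells, against 51.6, 23.3, 67.0 and 16.7 CPM in alpha beta T cells (log2 fold change 1.96, SE 0.25). Gamma transcripts were therefore also present in alpha beta T cells, at a lower level in each library.

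Of 19 type 17 genes tested, 8 were higher and none lower in gamma delta T cells, with a median log2 fold change of 1.5 against -0.01 over all genes. Listed genes low in alpha beta T cells, such as Scart1, Blk and Il1r1, passed the filter on low counts through gamma delta T cells. The direction of the list was therefore partly set by the filter, and its count and median are given as a description. Scart1, a scavenger receptor family gene of type 17 gamma delta T cells, stood at 75.6, 66.7, 126.5 and 177 CPM in gamma delta T cells, against 4.84, 3.97, 1.18 and 2.40 CPM in alpha beta T cells (log2 fold change 5.02, SE 0.44). Blk, a Src-family kinase better known from B cells, stood at 35.1, 46.2, 93.2 and 77.7 CPM, against 0.85, 3.69, 12.9 and 2.48 CPM (log2 fold change 4.18, SE 0.43). Both were higher in members of all 4 libraries. Il1r1, the interleukin 1 receptor, was higher by 2.60 (SE 0.33), and Tmem176a, Tmem176b, Il23r, Igf1r and Serpinb1a also passed. The count was 12 of 18 without the 2 hepatocyte-type barcodes, with the addition of Ramp1, Il18r1, Ltb4r1 and Il7r.

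Several NK receptor genes were higher in gamma delta T cells. In the list of 26 type 1 and cytotoxic genes tested, 6 rose and 2 fell, and the 6 were all genes of the NK receptor families, Klrb1c, Klrc1, Klrc2, Klrd1, Klre1 and Klrk1. Klrc1, which encodes the inhibitory receptor NKG2A, was read at 281, 159, 353 and 165.2 CPM in gamma delta T cells, against 124, 64.2, 138 and 65.1 CPM in alpha beta T cells (log2 fold change 1.23, SE 0.16). The 2 that fell were Gzmk, a granzyme gene, and Ccl3, a chemokine gene. When the 2 hepatocyte-type barcodes were left out 9 rose and 3 fell, with Prf1, Il2rb and Xcl1 also higher and Ccl4 also lower. In the NK and ILC1 list, 5 of 9 genes rose, Ncr1, Klri2, Fcer1g, Tyrobp and again Klrb1c, which both lists hold. Fcer1g encodes a signalling adaptor of NK receptors and had 441, 656, 792 and 443 CPM in gamma delta T cells, against 163, 114, 270 and 84.0 CPM in alpha beta T cells (log2 fold change 1.92, SE 0.21).

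Genes that were lower in gamma delta T cells included 3 of 11 tested genes of the CD3 complex and proximal signalling. Cd5, a brake on receptor signalling, stood at 26.4, 46.2, 19.97 and 21.4 CPM in gamma delta T cells, against 95.2, 95.4, 118 and 164.9 CPM in alpha beta T cells (log2 fold change -2.17, SE 0.29). Cd6, a relative of Cd5, and Cd28, a costimulatory receptor, had log2 fold changes of -2.79 (SE 0.40) and -1.48 (SE 0.20). No member library reached the level of its alpha beta counterpart for any of the 3. Themis, a regulator of receptor signalling during thymic selection, was at 112, 128, 79.9 and 113 CPM in gamma delta T cells, against 410, 258, 289 and 440 CPM (log2 fold change -1.76, SE 0.20). Ctla4 and Tnfrsf4, which mark activated and regulatory T cells, were lower as well, with log2 fold changes of -1.96 (SE 0.22) and -3.0 (SE 0.49). The interferon-stimulated gene Ifi27l2a was the only one of 10 interferon response genes to pass, at -1.98 (SE 0.38). Gm44174, at -5.03 (SE 0.54), is a noncoding gene between Cd8b1 and Cd8a, genes of the gate. None passed among 9 tissue residency, 9 lineage factor, 11 receptor signalling response, 12 proliferation, 6 p53 response, 10 lipid and glucose use and 9 heat shock genes tested. Fabp5, a lipid-binding protein gene, and Hspd1, a heat shock gene, passed as lower without the 2 hepatocyte-type barcodes, as did 13 of 16 hepatocyte genes. No limit on hepatocyte UMIs was set for alpha beta T cells. The direction of the hepatocyte genes was thus partly set by this choice.

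Against NK cells, gamma delta T cells had higher receptor, type 17 and recirculation genes and lower cytotoxic genes. In the same 4 libraries, 78 of 6874 genes tested passed (1.13%), 52 higher (0.756%) and 26 lower (0.378%) in gamma delta T cells. Without the 2 hepatocyte-type barcodes 436 of 6502 passed (6.71%), 221 higher (3.4%) and 215 lower (3.31%), among them 76 of the 78. The count was 39 without knockout 1, 114 without knockout 3, 5 without control 1 and 24 without control 3, so it rests strongly on control 1. DESeq2 called 135.

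Of 17 type 17 genes tested against NK cells, 6 rose and 1 fell. Scart1, Il23r and Blk had 0, 1 and 7 UMIs in NK cells. They passed the filter on low counts only through gamma delta T cells, so their direction was set by the filter. The count for this list is therefore a description. Il7r, the receptor for interleukin 7, stood at 214, 195, 260 and 256.5 CPM in gamma delta T cells of knockouts 1 and 3 and controls 1 and 3, against 18.8, 15.5, 17.2 and 25.8 CPM in NK cells (log2 fold change 3.59, SE 0.22). Cxcr6, a chemokine receptor of liver-resident lymphocytes, stood at 216, 215, 120 and 134 CPM, against 11.3, 14.2, 26.2 and 24.5 CPM (log2 fold change 3.10, SE 0.36). All 4 member levels lay above all 4 NK levels for both genes. Scart1 had no UMI in NK cells and was at least 278.2-fold higher in gamma delta T cells, taking 3 UMIs over the NK group as the floor. Il23r, the receptor for interleukin 23, had 66 UMIs in gamma delta T cells and 1 in NK cells, a ratio of 332 (95% interval 57.5 to 13300, counting error only). The gene that fell was Ccr2, a chemokine receptor. With the 2 hepatocyte-type barcodes left out 12 of 16 rose, with Igf1r, Zbtb16, Icos, Rora and Maf among them. Trgc2, Trgv2, Trgc1 and Trgc4 rose among 5 receptor genes tested, and Trdv4 as well without the 2, though only members had to hold the delta constant gene Trdc. Trgc2, Trgv2 and Trgc1 had 2, 16 and 27 UMIs in NK cells and likewise passed the filter through gamma delta T cells.

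Transcription factors and recirculation genes of T cells were also higher than in NK cells. Bcl11b, which holds T cell identity, was at 119, 246, 166.45 and 177 CPM in gamma delta T cells, against 3.76, 35.1, 13.8 and 23.1 CPM in NK cells (log2 fold change 3.29, SE 0.32). Of 9 circulating and naive T cell genes tested, 4 rose and none fell. They were Ly6c2, with 576, 467, 553 and 418 CPM against 113, 43.2, 87.5 and 106 CPM in NK cells, the transcription factors Lef1 and Tcf7, and S1pr1, the receptor for tissue exit. Ly6c2 rose by 2.60 (SE 0.26), S1pr1 by 2.08 (SE 0.37), Tcf7 by 1.62 (SE 0.29) and Lef1 by 1.45 (SE 0.22) on the log2 scale. The signalling adaptor Lat and Cd5 passed among 9 tested CD3 and proximal signalling genes, both higher. Cd247 and Cd2 were higher too without the 2 hepatocyte-type barcodes, and so was Cd27 among the circulating and naive genes.

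Cytotoxic genes were lower in gamma delta T cells than in NK cells. Of 23 type 1 and cytotoxic genes tested, 6 fell and none rose, and without the 2 hepatocyte-type barcodes 6 fell and Cxcr3 rose. Gzma, granzyme A, was at 748, 1610, 1784 and 797 CPM in gamma delta T cells, against 7567, 3933, 5740 and 4816 CPM in NK cells (log2 fold change -2.21, SE 0.31, adjusted p = 0.0163, edgeR quasi-likelihood test). Prf1, the pore-forming protein perforin, was at 54.5, 123, 93.2 and 75.8 CPM, against 699, 365, 436 and 356 CPM (log2 fold change -2.43, SE 0.35). No library of the 4 overlapped for either gene. Gzmb, Ccl3, Ccl4 and the transcription factor Eomes also fell. Klra8, an NK receptor of the Ly49 family, was at 3.51, 0, 39.95 and 42.7 CPM, against 340, 213, 300 and 417 CPM (log2 fold change -4.15, SE 0.57), and Klra4 and the integrin gene Itga2 fell by 2.86 and 2.23 on the log2 scale. None passed among 4 exhaustion, 11 receptor signalling response, 12 proliferation, 10 interferon response and 9 heat shock genes tested. Without the 2 hepatocyte-type barcodes Cd160 of the exhaustion list, the interferon response genes Ifi27l2a, Ifit3 and Ifit1 and the heat shock genes Hspa1b and Hspa1a passed as higher. Hspd1 and 13 of 16 hepatocyte genes then passed as lower. NK cells had no limit on hepatocyte UMIs either, so the direction of the hepatocyte genes was partly set by this choice.

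The 2 comparisons share the gamma delta libraries, so their overlap is not a separate result. Genes that passed against both classes numbered 17. Higher against both were Trgc1, Trgc2, Trgc4, Trgv2, Scart1, Il23r, Blk, Il1r1, Nebl and Gm43434, and lower against both was Ccl3.

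**Figure D2:**
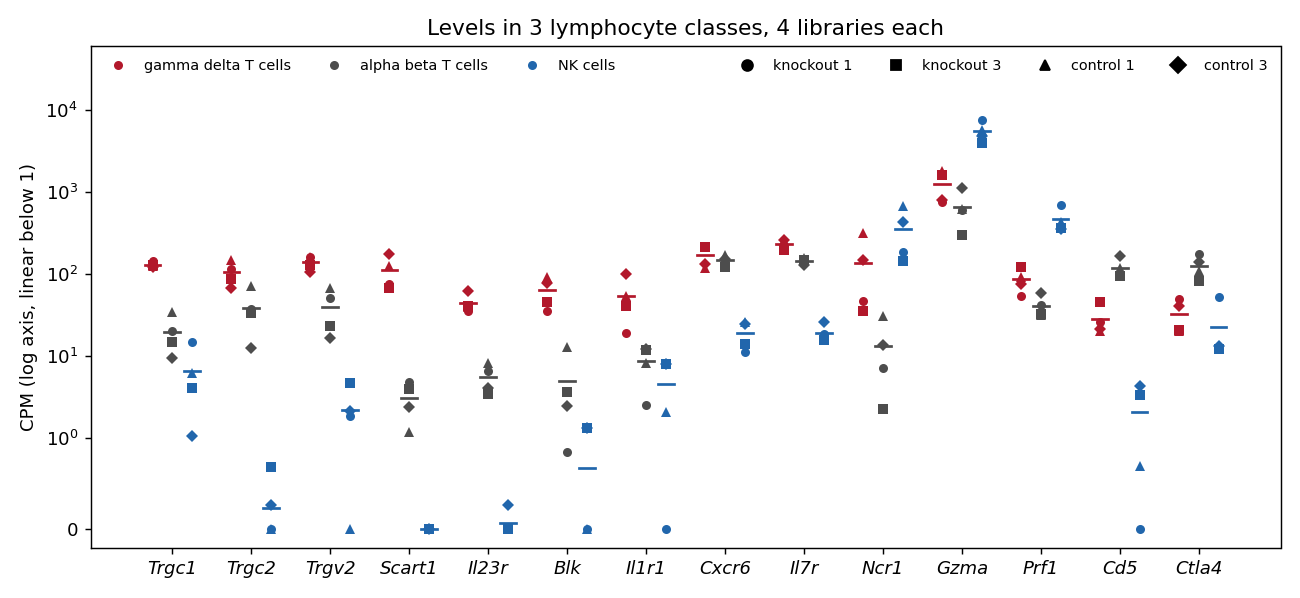
Levels of 14 genes in CPM (log axis, linear below 1) in gamma delta T cells, alpha beta T cells and NK cells of 4 libraries, one marker per library, with bars at the mean. Receptor and type 17 genes lie highest in gamma delta T cells, Gzma and Prf1 highest in NK cells, and Cd5 and Ctla4 highest in alpha beta T cells. Ncr1 also lies highest in NK cells, which were gated on Ncr1 or Klrb1c.

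The members fell into a larger type 1 and a smaller type 17 subset. A member was called type 17 with a UMI in any of a set of type 17 genes that includes Il17a, Il17f, Il23r and Scart1, and none in Tbx21, Klrd1, Klrc1 or Eomes, and type 1 with the reverse. This gave 27 type 17 cells and 144 type 1 cells, 9 with genes of both and 21 with neither. The 2 hepatocyte-type barcodes were both in the type 17 gate, so the subset results use the other 25 type 17 cells. Among them Scart1 had a UMI in 20, Il23r in 17, Il17a in 5 and Il17f in none. These gate genes are given as a description. Type 17 cells had a median of 3831 UMIs and type 1 cells of 5590.5 UMIs.

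Variable segments, which the gate did not use, separated along with it. Trgv6 and Trdv4 encode the gamma and delta segments of an invariant receptor that is made in the fetal thymus and is known from tissue-resident type 17 cells. Their last 120 coding bases are shown because these segments marked the subset. Capitals run from the last TGT codon, which encodes the conserved cysteine where the antigen-binding loop begins.
Trgv6 (chr13:19190810-19190929, plus strand, GRCm38): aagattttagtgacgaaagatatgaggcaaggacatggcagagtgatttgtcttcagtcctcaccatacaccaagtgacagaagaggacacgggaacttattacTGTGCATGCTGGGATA
Trdv4 (chr14:54075396-54075515, plus strand, GRCm38): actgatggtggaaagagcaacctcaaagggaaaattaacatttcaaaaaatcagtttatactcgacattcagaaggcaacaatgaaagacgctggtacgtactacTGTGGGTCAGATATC
Trgv6 had a UMI in 11 of 25 type 17 cells (44.0%, exact binomial 95% interval 24.4 to 65.07) and in 0 of 144 type 1 cells, which allows a UMI in up to 2.53%. Trdv4 had a UMI in 13 of 25 type 17 cells (52.0%) and in 4 of 144 type 1 cells (2.78%). The share with Trgv6 was 0.32% in alpha beta T cells and 0.47% in NK cells. Over all 199 members left, 15 had Trgv6, of which 12 also had Trdv4, 12 had Blk and none had Lck. Trgv4, the segment of another known type 17 lineage, was seen in 0 of 25 type 17 cells, which allows a UMI in up to 13.72%, and in 8 of 144 type 1 cells. Trgv2 did not separate in this way, with 11 of 25 type 17 cells and 72 of 144 type 1 cells (44.0% and 50%).

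UMIs of Blk and Lck, both Src-family kinases, differed in share between the subsets. Blk had a UMI in 17 of 25 type 17 cells (68.0%) and in 3 of 144 type 1 cells (2.08%). Lck, the kinase that starts signalling from the T cell receptor, had none in 25 type 17 cells, which allows a UMI in up to 13.72%, and a UMI in 115 of 144 type 1 cells (79.86%). Alpha beta T cells and NK cells had Lck in 80.47% and 65.78% of cells and Blk in 1.58% and 0.57%. Blk and Lck were seen together in 4 of 199 members.

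**Figure D3:**
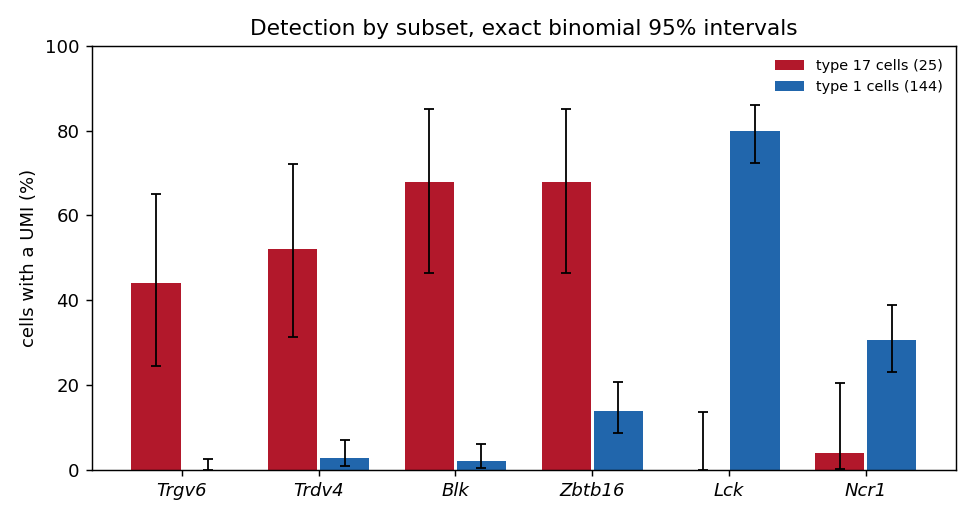
Percent of cells with a UMI of 6 genes in 25 type 17 cells and 144 type 1 cells, with exact binomial 95% intervals. Trgv6, Trdv4, Blk and Zbtb16 are seen in a larger share of type 17 cells and Lck and Ncr1 in a larger share of type 1 cells, with 0 of 25 type 17 cells holding Lck.

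Across genes, receptor, type 17 and type 1 genes all differed between the subsets. A comparison of libraries with at least 10 cells of each subset had been planned, and only 1 library met that. The subsets were therefore compared over the 4 libraries with at least 4 cells of each, a limit set after the cell numbers were seen. Knockouts 1 and 3 and controls 1 and 3 held 6, 4, 5 and 9 type 17 cells, with 15725 to 48833 UMIs per library, and 55, 28, 17 and 40 type 1 cells, with 117853 to 429965 UMIs. Of 1346 genes tested, 206 passed (15.3%), 120 higher (8.92%) and 86 lower (6.39%) in type 17 cells. With the 2 hepatocyte-type barcodes kept, 171 of 2094 passed (8.17%), 37 higher (1.77%) and 134 lower (6.4%), and 83 were shared. Leaving out 1 library at a time, the count lay between 99 without control 3 and 240 without knockout 3.

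All 15 tested genes of the type 17 list rose in type 17 cells, with a median log2 fold change of 3.69 against -0.02 over all genes. The gate genes are not among them, and 15 of the 30 listed genes were abundant enough to be tested. With the 2 hepatocyte-type barcodes kept, 7 of 13 passed. The filter on low counts lets a gene in through 1 subset alone. Listed genes that were low in type 1 cells could thus be tested only where they were high in type 17 cells. The shared direction of the 15 was therefore partly set by the filter and is given as a description. Il1r1 was read at 370, 318, 507 and 696 CPM in type 17 cells of knockouts 1 and 3 and controls 1 and 3, against 0, 13.8, 0 and 3.60 CPM in type 1 cells, a ratio of 174 (95% interval 56.7 to 872, counting error only). Tmem176b, an intracellular ion channel gene, stood at 924, 1335, 760 and 491 CPM, against 23.3, 20.7, 0 and 10.8 CPM (log2 fold change 5.64, SE 0.44). Rora, a nuclear receptor of type 17 cells, stood at 1294, 954, 634 and 1249 CPM, against 107, 138, 42.4 and 46.8 CPM (log2 fold change 3.69, SE 0.37). Neither subset overlapped the other in any of these genes. Blk rose by 6.42 (SE 0.50), Zbtb16, the factor PLZF of innate-like T cells, by 3.06 (SE 0.39), Cxcr6 by 2.82 (SE 0.35), and Il7r, Icos, Maf, Ccr2 and Il18r1 also rose.

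Other genes rose in type 17 cells outside the fixed lists. Adam12, a metalloprotease gene, had 49 UMIs in type 17 cells and 2 in type 1 cells, a ratio of 233 (95% interval 61.2 to 1980). Abi3bp, an extracellular matrix protein gene, had 277, 318, 444 and 594 CPM, against 0, 0, 0 and 14.4 CPM (log2 fold change 6.26, SE 0.59). S100a4 and S100a6, genes of calcium-binding proteins, rose by 2.99 (SE 0.25) and 2.06 (SE 0.19), and S100a6 did not pass with the 2 hepatocyte-type barcodes kept. S100a4 stood at 2912, 3180, 3359 and 4075 CPM in type 17 cells, against 558, 719, 212 and 277 CPM in type 1 cells.

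Receptor components went both ways. Trgc1 stood at 878, 509, 697 and 512 CPM in type 17 cells, against 114, 69.1, 50.9 and 72.0 CPM in type 1 cells (log2 fold change 2.98, SE 0.37). Trdv4 had 55 UMIs in type 17 cells and 3 in type 1 cells, a ratio of 174 (95% interval 56.7 to 872). Cd3g was at 1618, 1335, 1584 and 1208 CPM in type 17 cells, against 756, 857, 662 and 526 CPM in type 1 cells (log2 fold change 1.00, SE 0.23), and Cd247, the CD3 zeta chain gene, rose by 1.29 (SE 0.34). Each was higher in type 17 cells of all 4 libraries, and neither Cd3g nor Cd247 passed with the 2 hepatocyte-type barcodes kept (log2 fold changes -0.01 and 0.27). Lck had 0 UMIs against 302 and was at least 10.6-fold lower in type 17 cells, and Cd2, an adhesion receptor gene, had 3 UMIs against 237, a ratio of 8.3-fold lower (95% interval 2.81 to 40.5).

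All 13 tested genes of the type 1 and cytotoxic list fell in type 17 cells, with a median log2 fold change of -4.53, or -3.71 with 3 genes at 0 set to their bounds. With the 2 hepatocyte-type barcodes kept, all 15 tested fell. Listed genes that were low in type 17 cells could pass the filter on low counts only through type 1 cells. The gate also sorted the cells by Tbx21, Klrd1, Klrc1 and Eomes, which belong to the same list. The shared direction was therefore partly set in advance and is given as a description. Ccl5, a chemokine gene, stood at 0, 318, 0 and 81.9 CPM in type 17 cells, against 5514, 6107, 4047 and 6308 CPM in type 1 cells (log2 fold change -6.05, SE 0.35). Nkg7, a cytotoxic granule protein gene, had 1 UMI against 1257, which is 132-fold lower (95% interval 23.7 to 5220). Gzma stood at 46.2, 0, 0 and 123 CPM, against 988, 2107, 2274 and 1242 CPM (log2 fold change -4.53, SE 0.42). Xcl1, a chemokine gene, had 0 UMIs against 727 and was at least 25.5-fold lower, and Ifng, with 0 against 255, at least 8.9-fold lower. The receptor adaptor genes Fcer1g and Tyrobp had 1 and 0 UMIs in type 17 cells, against 670 and 437 in type 1 cells. Ncr1 had a UMI in 1 of 25 type 17 cells and 44 of 144 type 1 cells.

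Other gene groups also differed between the subsets. Of 6 receptor signalling response genes tested, 5 rose in type 17 cells, Dusp1, Nfkbia, Junb, Nr4a1 and Ier2, and none passed with the 2 hepatocyte-type barcodes kept. Nr4a1, the gene floxed in these mice, stood at 139, 127, 317 and 266 CPM in type 17 cells, against 46.5, 111, 25.5 and 25.2 CPM in type 1 cells, from 23 and 46 UMIs (log2 fold change 2.19, SE 0.51). Type 17 cells were higher in each library, but in knockout 3 only by 127 against 111 CPM. In type 17 cells 3 UMIs correspond to 138.66 CPM in knockout 1 and 190.78 CPM in knockout 3. The Nr4a1 levels of both knockouts were thus near or below that floor, and the widest gaps were in the controls. The heat shock gene Hspa1b, which tissue dissociation is known to raise, also rose, by 1.02 (SE 0.27), as 1 of 8 heat shock genes tested, though not in control 1, and its part in the result for the receptor signalling genes was not tested. Of the proliferation list, Hmgb2 and Tubb5 were tested and fell in type 17 cells, but with the 2 hepatocyte-type barcodes kept 1 of 8 tested fell and Tubb5 did not pass (log2 fold change -0.48). Hmgb2 stood at 92.4, 254, 380 and 410 CPM in type 17 cells, against 1723, 981, 3123 and 1811 CPM in type 1 cells (log2 fold change -2.69, SE 0.29). Tubb5, a tubulin gene, stood at 231, 191, 317 and 164 CPM in type 17 cells, against 569.8, 165.8, 1061 and 414 CPM in type 1 cells (log2 fold change -1.28, SE 0.38), so it was not lower in knockout 3. A UMI in Mki67 or Top2a, cell cycle genes, was seen in 4 of 25 type 17 cells (16%) and 35 of 144 type 1 cells (24.31%), with intervals of 4.54 to 36.08 and 17.55 to 32.15 that overlap. In UMIs over the 4 libraries, Mki67 had 1 against 218, 22.9-fold lower in type 17 cells (95% interval 4.07 to 909). Top2a had 3 against 259, 9.07-fold lower (3.07 to 44.3), while for Cdk1 the interval of 0.618 to 20.1 held 1. These fold intervals cover counting error only. Among genes of circulating and naive T cells, Cd44 and Klf2 rose by 1.81 (SE 0.38) and 1.08 (SE 0.37), neither with the 2 hepatocyte-type barcodes kept, while Ly6c2 had 2 UMIs against 667, 35-fold lower (95% interval 9.66 to 290).

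**Figure D4:**
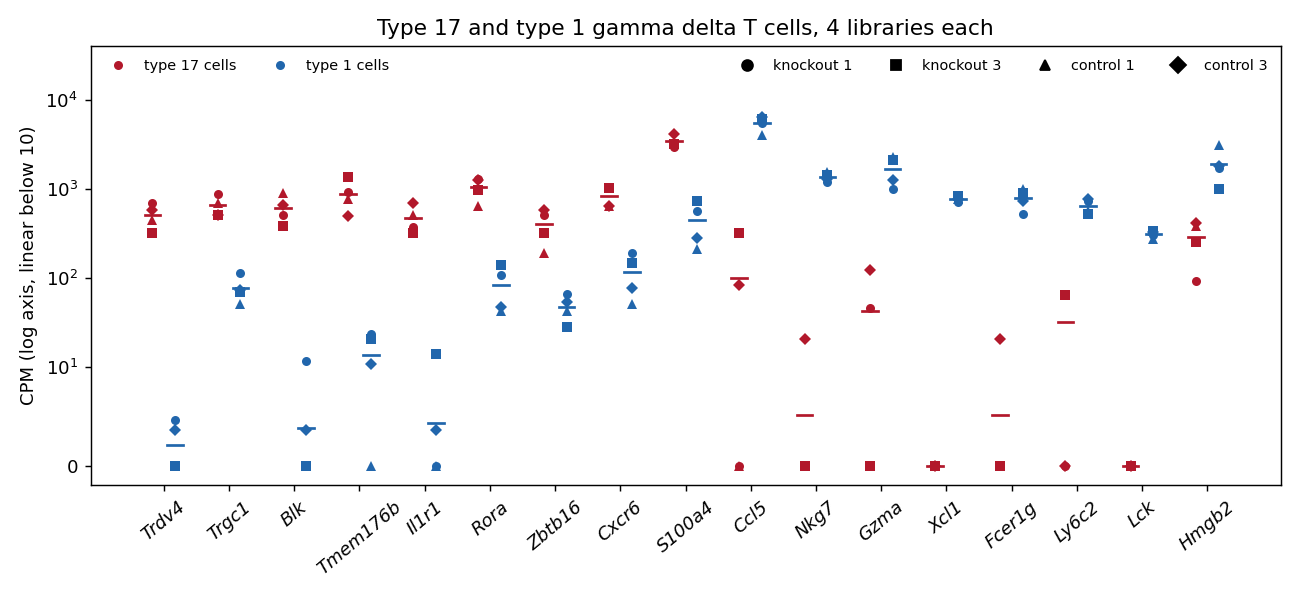
Levels of 17 genes in CPM (log axis, linear below 10) in type 17 cells and type 1 cells of 4 libraries, one marker per library, with bars at the mean. The 9 genes from Trdv4 to S100a4 lie higher in type 17 cells, and the 8 from Ccl5 to Hmgb2 lie lower.

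Between genotypes the targeted gene was looked at first. Nr4a1 was read in members at 42.2 and 103 CPM in knockouts 1 and 3 and at 53.3, 18.4 and 60.2 CPM in controls 1, 2 and 3. The groups overlapped, and over the 4 libraries with at least 10 members the log2 fold change was 0.17 (SE 0.52, adjusted p = 1, edgeR quasi-likelihood test), from 44 UMIs in knockouts and 39 in controls. It turned to -0.51 without knockout 3, to -0.14 with a stricter gate and to -0.99 with single mice as units in libraries 3. Cre acts where Ncr1 is expressed, and 46 of 201 members had an Ncr1 UMI. The reads come from 3′ ends and the labels do not give the floxed part of Nr4a1, and neither the deletion nor the labels can be checked here. Nr4a2 stood at 65.0 and 71.8 CPM in knockouts 1 and 3 and at 99.9 and 54.4 CPM in controls 1 and 3 (log2 fold change -0.12, SE 0.42).

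No gene passed between genotypes in gamma delta T cells. Knockouts 1 and 3 were compared with controls 1 and 3, and 0 of 5445 genes tested (0.0%) passed an adjusted p of 0.05 with the edgeR quasi-likelihood test, or with DESeq2, while 131 had an unadjusted p under 0.05. Without the 2 hepatocyte-type barcodes 0 of 4668 passed. The count was 59 without knockout 1, 9 without knockout 3, 0 without control 1 and 11 without control 3. There a lone library is assumed to vary like the other group. With no filter on low counts 51 of 15924 passed. The values below are therefore a description of 4 libraries. Many of the genes were named for a small p, and 2 against 2 libraries can separate by chance. The share of all tested genes whose groups did not overlap was not counted.

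The gene with the smallest p was Ncr1 itself. It stood at 47.4 and 35.9 CPM in knockouts 1 and 3 and at 320, 331 and 148 CPM in controls 1, 2 and 3, and no knockout library reached a control library. The log2 fold change was -2.39 (SE 0.45, unadjusted p = 0.000787, adjusted p = 1, edgeR quasi-likelihood test). Single cells weighed on it, since 1 member of control 1 held 14 of its 48 Ncr1 UMIs, 1 of control 2 held 15 of 18 and 1 of control 3 held 19 of 76. Without the top member of each library the levels were 39.3 and 26.3 CPM in knockouts 1 and 3 and 247, 148 and 113 CPM in controls 1, 2 and 3. Knockout mice carry iCre at Ncr1 and controls do not, so the genotype of Nr4a1 and the altered Ncr1 allele cannot be told apart for this gene. In NK cells Ncr1 was at 186, 625 and 145 CPM in knockouts 1, 2 and 3 and at 666, 716 and 429 CPM in controls 1, 2 and 3, so knockout 2 overlapped the controls there. Klra8 had 2 and 0 UMIs in knockouts 1 and 3 and 6 and 22 in controls 1 and 3. The 11 NK and ILC1 genes summed to 1123 and 2067 CPM in knockouts 1 and 3 and to 2650, 4135 and 1512 CPM in controls 1, 2 and 3, and of the 11 genes 8 had a negative fold change and none passed.

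Fold changes of type 17 and type 1 genes had both signs between genotypes, and none passed. Scart1 stood at 75.6 and 66.7 CPM in knockouts 1 and 3 and at 126.5, 423 and 177 CPM in controls 1, 2 and 3 (log2 fold change -1.15, SE 0.34). Trdv4, a receptor gene that is not on the type 17 list, stood at 29.9 and 25.6 CPM in knockouts 1 and 3 and at 53.3, 36.8 and 85.5 CPM in controls 1, 2 and 3, and Il1r1 at 19.3 and 41.0 CPM and at 53.3, 36.8 and 101 CPM. The groups did not overlap for Scart1 and Trdv4, and for Il1r1 they did not over the 4 libraries tested, while control 2 lay between the knockouts. These genes were named for a small p within their lists, so the gaps are a description. Over the type 17 list, 11 of 19 tested genes had a negative fold change, with a median of -0.18 against -0.01 over all genes, and without the 2 hepatocyte-type barcodes 13 of 18 had one, with a median of -0.36. Cxcr6, which is on the list, went the other way, at 216 and 215 CPM in knockouts 1 and 3 and at 120, 55.1 and 134 CPM in controls 1, 2 and 3 (log2 fold change 0.71, SE 0.29, or -0.14 with the stricter gate). Ccl5 was at 4249 and 4764 CPM in knockouts 1 and 3 and at 3402, 3363 and 3480 CPM in controls 1, 2 and 3 (log2 fold change 0.36, SE 0.18), but in the type 1 list 14 of 22 genes had a negative fold change, with a median of -0.11, and 15 of 22 without the 2 barcodes.

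Cell cycle genes had negative and most interferon genes positive fold changes, without passing. All 12 proliferation genes had a negative fold change, with a median of -0.92, or -0.83 without the 2 hepatocyte-type barcodes, and none passed. Ube2c, which acts at the exit from mitosis, was at 73.8 and 20.5 CPM in knockouts 1 and 3 and at 320 and 140 CPM in controls 1 and 3 (log2 fold change -2.05, SE 0.56), and Cdk1 at 42.2 and 10.3 CPM and at 126.5 and 95.2 CPM. Without the 2 hepatocyte-type barcodes, the share of members with an Mki67 or Top2a UMI was 17.39% and 23.08% in knockouts 1 and 3 and 29.63%, 20% and 23.73% in controls 1, 2 and 3, so in this measure the groups overlapped. Of 9 interferon response genes, 8 had a positive fold change, with a median of 0.75, or 0.68 without the 2. Rsad2, an antiviral gene, was at 40.4 and 66.7 CPM in knockouts 1 and 3 and at 6.66 and 9.71 CPM in controls 1 and 3 (log2 fold change 2.43, SE 0.68, adjusted p = 1, edgeR quasi-likelihood test). The 12 interferon genes summed to 1179 and 1513 CPM in knockouts 1 and 3 and to 553, 129 and 818 CPM in controls 1, 2 and 3, without overlap. This gap is a description, since such gaps were not counted over all lists. None of the 9 passed.

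**Figure D5:**
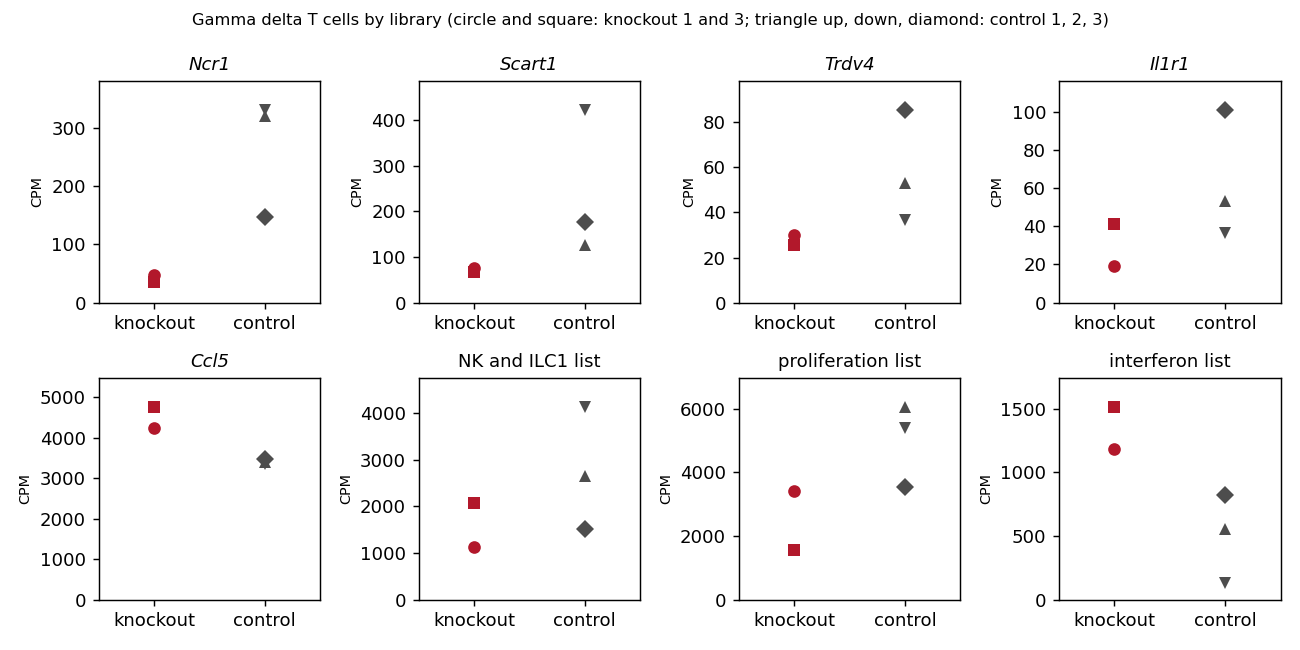
Levels of 5 genes and summed levels of 3 gene lists in gamma delta T cells, in CPM from 0, one marker per library, knockout left of control. Ncr1, Scart1 and Trdv4 lie lower and the interferon list higher in both knockout libraries than in the controls, and no single gene passed the test.

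The share of gamma delta cells among T cells varied more between libraries of a group than between groups. It was 14.55% (70 of 481), 0% (0 of 1) and 7.89% (39 of 494) in knockouts 1, 2 and 3 and 14.67% (27 of 184), 27.78% (5 of 18) and 3.19% (60 of 1880) in controls 1, 2 and 3. Knockouts averaged 7.48 ± 7.29% and controls 15.21 ± 12.3% (SD, n = 3 libraries each). They differed by -7.73 points (two-sided exact permutation p = 0.4, where 3 against 3 cannot go below 0.1). Knockout 2 had a single T cell and control 2 had 18, so these libraries say little. As a share of all kept barcodes the difference was 0.26 points. Mice within a library also differed, at 11.17% and 4.74% in the 2 mice of knockout 3 and 2.32%, 1.75% and 11.11% in the 3 mice of control 3.

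Type 17 cells made up 11.29% (7 of 62) and 12.5% (4 of 32) of type 17 and type 1 cells in knockouts 1 and 3, and 22.73% (5 of 22), 20% (1 of 5) and 20% (10 of 50) in controls 1, 2 and 3. Both knockout libraries lay below all controls, and over the 4 libraries with at least 10 members the difference was -9.47 percentage points (two-sided exact permutation p = 0.3333, the smallest that 2 against 2 allows). The exact binomial intervals of single libraries were wide, 4.66 to 21.89% and 3.51 to 28.99% in knockouts 1 and 3 and 7.82 to 45.37% and 10.03 to 33.72% in controls 1 and 3, and they overlapped. Without the 2 hepatocyte-type barcodes the difference was -9.38 points, with the stricter gate it was -17.87 points, and with cells thinned to 1000 UMIs it was -11.55 points, with 1 control below both knockouts.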

How the data were processed

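The values are unnormalized UMI counts for every gene in every barcode, as deposited by the authors from 10x 3′ libraries of enzyme-dissociated liver with Cell Ranger 9.0.1 on GRCm39, per the submitters' processing notes. The matrices of the libraries numbered 1 and 2 hold called cells and those numbered 3 all barcodes, with hashtag UMIs, which stayed out of library sizes. Whether separate cultures or animals lie behind libraries 1 and 2 is not stated.

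Members, alpha beta T cells and NK cells were gated as described, and UMIs were summed per library and class. Sums went into the two-sided quasi-likelihood test of edgeR 4.0.16 (R 4.3.3) after filterByExpr and TMM scaling, and p was adjusted by Benjamini-Hochberg over all genes tested, with a threshold of 0.05. Genes of a gate were fitted and left out of calls, and 1 gene of the type 17 gate is not reported here. CPM is UMIs per 1000000 UMIs of the class in that library. Shares have exact binomial 95% intervals, which cover counting error only, and floors are 3 UMIs. The fits were tested on simulated data. Cells thinned to 1000 UMIs, a minimum of 1000 UMIs, a stricter gate (2 or more UMIs over Trdc and gamma constant genes, no Ncr1), DESeq2 1.42.0, removal of multiplets (2 hashtags, or the highest Scrublet scores at 0.8% per 1000 barcodes, because Scrublet alone marked 1 to 4 barcodes per library) and leaving out each library were alternatives. Leaving out the 2 hepatocyte-type barcodes was chosen after seeing the data. It applied to gamma delta T cells only, and alpha beta T cells and NK cells kept any barcodes of that kind.

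Named genes were Nr4a1, Nr4a2, Nr4a3 where tested, the genes with the smallest p per direction among those that passed (up to 12 per direction between classes, the 10 smallest p between genotypes), and up to 4 members per list. Genes of the receptor, CD3, type 17 and type 1 lists could also be given as levels. The members and lists were chosen with earlier results of these data known.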

Additional observations from a re-analysis of the deposited data

How the results depend on the processing

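Between genotypes, 51 genes passed with no filter on low counts, and leaving out 1 library gave 0 to 59. Between gamma delta and alpha beta T cells the count was 169 of 22368 with no filter, 154 of 7174 without the 2 hepatocyte-type barcodes and 30 to 122 leaving out 1 library. With the stricter gate, which leaves out members with Ncr1, 48 of 6984 passed. Of the 57 genes of the main fit, 31 were among these 48 and 4 were not tested. Between gamma delta T cells and NK cells it was 317 of 20246 with no filter, 135 of 6874 with DESeq2 and 159 of 6256 with the stricter gate. It was 436 of 6502 without the 2 barcodes and 5 to 114 leaving out 1 library. Between type 17 and type 1 cells it was 415 of 14691 with no filter and 99 to 240 leaving out 1 library. With the stricter gate it was 99 of 682 over 3 libraries, against 206 of 1346 in the main fit. The cause of these differences was not tested. The difference in the share of gamma delta cells among T cells was 6.68 points with cells thinned to 1000 UMIs, without knockout 2, and 0.26 points over all barcodes, against -13.74 to -1.45 points leaving out 1 library. For the share of type 17 cells it was -10.83 to -8.1 points leaving out 1 library, -11.55 points with thinned cells and -17.87 points with the stricter gate.

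Of 198 named gene results, 22 changed sign somewhere, in log2 fold changes. Between genotypes these were Nr4a1 (-0.51 to 0.79 leaving out 1 library, -0.14 with the stricter gate, -0.99 with mice as units), Nr4a2 (-0.54 to 0.28), Trbc1 (-0.44 to 0.43, -0.03 without the 2 barcodes), Trbc2 (-0.38 to 0.57, -0.31 with the stricter gate, -0.01 without the 2), Cxcr6 (-0.14, stricter gate), Tox (-0.46 to 0.25), Nfkbia and Jun (-0.12 and -0.59 with mice as units), Id3 (-0.21 to 1.59), Fabp5 (-2.07 to 0.56, 0.88 with the stricter gate, 0.18 without the 2) and Ighm (-0.23 to 0.52, -0.13 with the stricter gate), none of which had passed. Against NK cells they were Mcm5 and Hmgb2 (-0.12 and -0.28, stricter gate) and Ighm (-0.45 to 0.17, 0.2 with the stricter gate, 0.12 without the 2). Between subsets they were, with the 2 hepatocyte-type barcodes kept, Cd3g (-0.01), Tox (-0.22), Hspa1b (-0.13) and Ldha (0.87), and, never passing, Trbc2 (-0.37 with no filter, -0.83 with the 2), Trbc1 (-0.54 to 0.35, -0.46 with no filter, -1.05 with the 2), Bax (-0.21, no filter) and Pfkp (-0.09 with no filter, -0.16 with the 2). The cause was not tested.

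In a fit blocked by replicate number, 0 genes passed between genotypes and 215 had an unadjusted p under 0.05. The blocked share differences were -7.73 points (exact permutation p = 0.75) and -9.47 points (exact permutation p = 0.5, the smallest that 2 pairs allow). Deviations of same-numbered libraries correlated at 0.086, so the numbers were not taken to pair samples. With 2 libraries per group and 27 to 70 members each, genotype effects could be missed, large ones included. Log2 fold changes of -3.91 for Klra8, -2.39 for Ncr1 and 2.43 for Rsad2 did not pass. The 25 type 17 cells limit the subset levels, where 3 UMIs correspond to 29.42 CPM.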

Other observations

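Members outside the 2 subsets split along the same genes. Of 9 members with genes of both programmes, 4 had a Trgv6 UMI, 4 had Trdv4, 3 had Blk and 3 had Lck, at a median of 6838 UMIs. Of 21 members with neither, none had Trgv6 or Trdv4 (which allows a UMI of each in up to 16.11% of them), 2 had Blk and 15 had Lck (71.43%), at a median of 2823 UMIs. Doublets were not told apart from cells with both programmes.

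Delta and gamma transcripts also occurred outside gamma delta T cells. Trdv4 had a UMI in 134 of 1058 NK cells (12.67%) and Trdv2-2 in 71 (6.71%), against 12 and 6 of 2857 alpha beta T cells (0.42% and 0.21%). The alpha beta gate leaves out cells with Trdc and the NK gate does not, so this contrast was partly set by the gates. Trgv2 had a UMI in 253 of 2857 alpha beta T cells (8.86%) and in 12 of 1058 NK cells (1.13%).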
